A study of Mus musculus with 6 samples.

Results

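A set of 10 genes that control entry into the cell cycle were followed across 6 cultures of mouse fetal liver macrophages: the D cyclins Ccnd1, Ccnd2 and Ccnd3, their kinases Cdk4 and Cdk6, the CDK inhibitors Cdkn1a, Cdkn1b, Cdkn2a and Cdkn2c, and the transcription factor gene Myc. They were taken by gene symbol from the deposited normalized table, in which all 10 were found among 16111 genes. The cells came from E13.5 fetuses of strain C57BL/6 RCC, either WT (wild-type here) or AhRR-/- (Ahrr-deficient here), the latter lacking the repressor of the aryl hydrocarbon receptor (AhR), with 3 libraries per genotype numbered by mouse. Both genotypes had spent 5 weeks in continuous culture with 2% GM-CSF, and the RNA is that of the non-adherent cells only. The Ahrr allele is not described in the sources used here.

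D cyclins are made in response to growth signals and bind CDK4 or CDK6, and the active kinase phosphorylates the retinoblastoma protein and so frees E2F factors to switch on genes for DNA synthesis. The INK4 inhibitors, here p18 (from Cdkn2c) and p16 (from Cdkn2a), bind CDK4 and CDK6 directly, while p21 (from Cdkn1a) and p27 (from Cdkn1b) belong to the CIP/KIP family, which binds whole cyclin-CDK complexes and also restrains CDK2. MYC, with its partner MAX, binds E-boxes and drives genes for growth. GM-CSF is a growth and survival signal for macrophages.

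Library totals ranged from 3556106 counts in Ahrr-deficient replicate 1 to 41668336 in Ahrr-deficient replicate 2. Wild-type replicate 2 carried 5.28% of its counts on 1 ribosomal RNA gene, against at most 0.0679% in the other libraries. Levels are given as CPM, the count scaled to a library of 1e+06 counts. For Ahrr itself the wild-type replicates 1, 2 and 3 held 4.60, 4.29 and 5.32 CPM, the Ahrr-deficient ones 2.25, 2.57 and 1.21 CPM, so reads on the targeted gene were fewer but not gone (log2 change -1.21, SE 0.26; adjusted p 0.0151, edgeR). That adjusted p was 0.0631 without wild-type replicate 1, 0.0502 without wild-type replicate 3 and 0.301 after all libraries were thinned to the smallest total. The labelled cell type was checked on 10 macrophage markers, all of them expressed. Of these Csf1r and Cd14 were lower and Itgax higher in Ahrr-deficient cells (the call of Csf1r was lost without any single library other than Ahrr-deficient replicate 1). Of the 10, 2 had a log2 change above 0 and 6 an unadjusted p under 0.05 (edgeR). The 10 markers summed to 22185 to 27543 CPM in wild-type and 15764 to 23050 CPM in Ahrr-deficient libraries. This was mainly Lyz2, at 19958 and 15185 CPM on average (not called, edgeR adjusted p 0.0926). None of the listed mast cell or lymphocyte markers was among the 16111 genes, and the granulocyte and progenitor list (2 of 8 in the table) summed to at most 2.54 CPM in any library. Summed levels of the other lists were 13.3 to 22.6 against 2.76 to 4.78 CPM for erythroid markers (2 of 7 in the table, mainly Epor), 57.6 to 62.1 against 72.001 to 93.2 CPM for dendritic cell markers (3 of 5, mainly Clec9a), 158 to 186 against 89.4 to 119.8 CPM for hepatocyte markers (2 of 5, mainly Trf) and 2.38 to 9.68 against 1.62 to 3.94 CPM for stromal markers (Pdgfra alone of 5), wild-type first. The part of these differences in the results that follow was not tested.

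The promoter set used held no sequence for Ccnd1, Ccnd2 or Myc. Of the members it held, Cdk4, a long-known target of MYC, is shown because its promoter packs 4 E-boxes into a short stretch. Cdk4 is not among the genes that differed between the genotypes, described below. The 180 bases before its start site (chr10:127063355-127063534, plus strand, RefSeq on GRCm38.p6) read as follows, with each CACGTG in capitals.

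Cdk4: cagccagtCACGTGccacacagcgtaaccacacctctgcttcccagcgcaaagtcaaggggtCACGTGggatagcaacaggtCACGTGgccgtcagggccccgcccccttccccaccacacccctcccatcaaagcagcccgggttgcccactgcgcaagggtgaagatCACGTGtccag

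CACGTG reads the same on both strands. It was searched in the 250 bases before each start site, and 6.02% of the 32851 RefSeq windows held at least 1 match. At least 4 matches were found in 7 windows, belonging to 5 genes, of which Cdk4 was one. Among the members with a window (Ccnd3, Cdk4, Cdk6, Cdkn1a, Cdkn1b, Cdkn2a and Cdkn2c, with 11 windows in all), Cdk6 held 1 match and no other gene besides Cdk4 held any. A match is a string of letters and not evidence of binding.

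The second motif was GCGTG, the core of the element that AhR binds, searched on both strands (GCGTG or CACGC) in the same windows. It occurred in 28.2% of all windows. The 3 inhibitors whose level differed between the genotypes, described below, each held 1 match, shown here with 10 bases on either side and the core in capitals (Cdkn1a, chr17:29093553-29093577, plus strand; Cdkn1b, chr6:134920219-134920243, plus strand; Cdkn2c, chr4:109666786-109666810, minus strand).

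Cdkn1a: ctggtgcgctGCGTGacaagagaat

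Cdkn1b: tccgagtagtCACGCgaccagccaa

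Cdkn2c: gttgggcgggGCGTGggcggggccc

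The matches of Cdkn1a and Cdkn2c lie before 1 of the 2 RefSeq start sites of each gene. Ccnd3 and Cdk6 held 1 match each, and Cdkn2a held 4 in the window of its upstream start site. Genes that differed between the genotypes and genes that did not were thus both among those with a match. No match overlapped an E-box.

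Of the 10 genes, 5 differed between the genotypes, with opposite directions for a cyclin and for inhibitors: the D cyclin Ccnd2 and Myc were higher, and 3 inhibitors, Cdkn1a, Cdkn1b and Cdkn2c, were lower in Ahrr-deficient cells. All 10 passed the filter on low counts. A gene is called here at an adjusted p under 0.05 by edgeR's quasi-likelihood test, with p-values adjusted over all 11408 tested genes. Of all tested genes, 19.6% were called, 9.62% higher and 9.95% lower. The 5 members called were 2 higher and 3 lower, and the median size of the log2 change was 0.66 over the 10 members and 0.22 over all tested genes. The 3 libraries of one genotype lay wholly above those of the other for the same 5 genes, against 36.6% of all tested genes. The members were chosen with earlier results of these data known, so these comparisons describe the set and do not test it. Labels number the mice but name no litter or culture batch, so p-values measure the spread between these libraries. In bulk RNA, fewer cells of a type and less RNA per cell cannot be told apart.

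**Figure D1:**
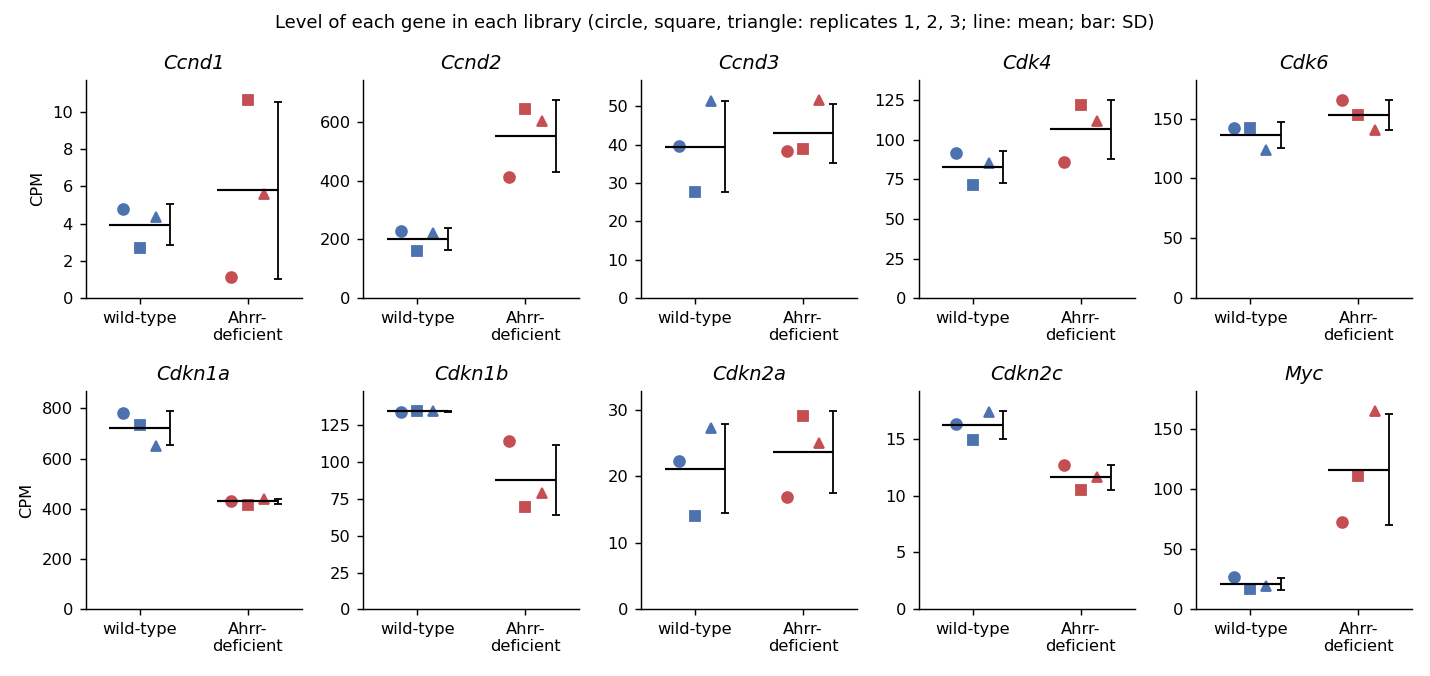
Level of each of the 10 genes in CPM (vertical axis from 0) in the 3 wild-type libraries (blue) and the 3 Ahrr-deficient libraries (red), with circles, squares and triangles for replicates 1, 2 and 3, a line at the mean and a bar of 1 SD on each side. The groups are separate for Ccnd2, Cdkn1a, Cdkn1b, Cdkn2c and Myc and overlap for the other 5 genes.

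Ccnd2 (ENSMUSG00000000184.12, chromosome 6, 127125162 to 127152193, minus strand, GRCm38) encodes cyclin D2. The wild-type replicates 1, 2 and 3 held 228, 159.7 and 221 CPM of it, the Ahrr-deficient ones 412, 644 and 602 CPM. Every Ahrr-deficient library was above every wild-type library, and replicate 1 was the lowest of its group. The fitted change was 2.60-fold, a log2 change of 1.38 (SE 0.17; adjusted p 0.00228, edgeR). It kept its call in each of 17 alternative fits, with log2 changes from 1.26 to 1.53. An antisense gene overlaps its exons (9330179D12Rik), at no more than 0.456 CPM in any library.

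Ccnd1 and Ccnd3 encode the other D cyclins. Ccnd1 (ENSMUSG00000070348.5, chromosome 7, 144929931 to 144939925, minus strand) was scarce: the wild-type libraries held 4.79, 2.698 and 4.34 CPM, the Ahrr-deficient ones 1.12, 10.7 and 5.56 CPM, the lowest of which rests on 4 counts. The Ahrr-deficient values lay on both sides of the wild-type ones, and the log2 change of 0.72 (SE 0.45) had an edgeR adjusted p of 0.287. Without Ahrr-deficient replicate 1 it was 0.97 (edgeR adjusted p 0.0299), and without Ahrr-deficient replicate 2 it was -0.09 (edgeR adjusted p 0.922), so these 2 libraries set its value. The gene LTO1 overlaps an exon of Ccnd1 on the opposite strand, at 11.1 to 18.0 CPM, and whether counting used the strand is not given in the sources used here.

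Ccnd3 (ENSMUSG00000034165.16, chromosome 17, 47505051 to 47599691, plus strand) ran at 39.7, 27.6 and 51.3 CPM in the wild-type libraries, against 38.2, 38.8 and 51.8 CPM in the Ahrr-deficient ones. These ranges overlap, and the log2 change was 0.06 (SE 0.18; adjusted p 0.853, edgeR), with a sign that changed in 4 of 17 alternatives. Bysl overlaps Ccnd3 on the opposite strand, at 11.6 to 19.6 CPM.

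Divided by the length of all annotated exons, cyclin D2 made up most of the D cyclin message in both genotypes. Those lengths were 4709, 9409 and 8775 bases for Ccnd1, Ccnd2 and Ccnd3. They cover the exons of every annotated transcript, expressed or not, so levels compared between genes depend on them. Ccnd2 was also the highest of these genes in CPM in every library. The summed level of the D cyclins was 29.8, 20.7 and 30.2 CPM per kb in the wild-type libraries, against 48.4, 75.1 and 71.1 CPM per kb in Ahrr-deficient replicates 1, 2 and 3. Ccnd2 held 77.6% to 82.0% of that sum in wild-type and 90.0% to 91.1% in Ahrr-deficient libraries. Ccnd3 held 15.2% to 19.3% in wild-type and 5.88% to 9.01% in Ahrr-deficient libraries. The order Ccnd2, Ccnd3, Ccnd1 held in all 6 libraries.

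Neither kinase gene was called. Cdk4 (ENSMUSG00000006728.12, chromosome 10, 127063534 to 127067920, plus strand) ran at 91.7, 71.6 and 85.6 CPM in the wild-type libraries, against 86.0, 122 and 112 CPM in Ahrr-deficient replicates 1, 2 and 3. Ahrr-deficient replicate 1 fell among the wild-type libraries and the other 2 lay above them. The log2 change was 0.30 (SE 0.12; adjusted p 0.104, edgeR). Its unadjusted p was 0.0325, and without Ahrr-deficient replicate 1 the log2 change was 0.40 with an edgeR adjusted p of 0.00580. Tspan31 overlaps Cdk4 on the opposite strand, at 55.2 to 69.8 CPM.

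Cdk6 (ENSMUSG00000040274.11, chromosome 5, 3341485 to 3531008, plus strand) measured 142, 143 and 124 CPM in the wild-type libraries, against 166, 153 and 140.2 CPM in the Ahrr-deficient ones. The groups overlapped, with a log2 change of 0.09 (SE 0.11; adjusted p 0.621, edgeR). Per length Cdk4 was the more abundant of the kinases, at 68.4% to 77.5% of their summed level in every library. In CPM Cdk6 was the higher in every library, so this order rests on the exon lengths used (3249 bases for Cdk4, 13989 for Cdk6).

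Cdkn1a (ENSMUSG00000023067.13, chromosome 17, 29090976 to 29100727, plus strand) was the most abundant of the 10 genes in wild-type, both in CPM and per length. Its product p21 is best known as the inhibitor that p53 induces. Wild-type libraries held 784, 734 and 651 CPM, and Ahrr-deficient libraries 432, 417 and 439.8 CPM. The 3 Ahrr-deficient libraries lay close together and well below the lowest wild-type one. The level was 1.78-fold higher in wild-type, a log2 change of -0.83 (SE 0.12; adjusted p 0.00374, edgeR), and the call was kept in all 17 alternatives, with log2 changes from -0.94 to -0.73.

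Cdkn1b (ENSMUSG00000003031.14, chromosome 6, 134920401 to 134925513, plus strand) encodes p27, which holds resting cells out of the cycle. Its wild-type values, 134.0, 134.4 and 134.5 CPM, were nearly identical, and its Ahrr-deficient values were 114, 69.7 and 78.9 CPM. All Ahrr-deficient libraries were lower, but replicate 1 was nearer to wild-type than to its own group. The log2 change was -0.72 (SE 0.17; adjusted p 0.0205, edgeR). This call did not survive the loss of any library except Ahrr-deficient replicate 1: the edgeR adjusted p was 0.0711, 0.0755 and 0.0531 without wild-type replicates 1, 2 and 3, and 0.0614 and 0.0807 without Ahrr-deficient replicates 2 and 3. Without Ahrr-deficient replicate 1 the log2 change was -0.96 (edgeR adjusted p 2.22e-04).

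Cdkn2c (ENSMUSG00000028551.14, chromosome 4, 109660876 to 109667189, minus strand) encodes the INK4 protein p18. Wild-type libraries held 16.3, 14.9 and 17.4 CPM, and Ahrr-deficient libraries 12.7, 10.5 and 11.6 CPM. The groups were separate, with a log2 change of -0.60 (SE 0.12; adjusted p 0.0112, edgeR). The call was lost without wild-type replicate 1 (edgeR adjusted p 0.0602), without Ahrr-deficient replicate 2 (0.0549) when all libraries were thinned to the smallest total (0.214) and with GC offsets and the replicate block together (0.112).

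Cdkn2a (ENSMUSG00000044303.6, chromosome 4, 89274471 to 89294653, minus strand) encodes p16 and, from another first exon, the p53 activator ARF, which these counts per gene cannot separate. Wild-type libraries held 22.3, 13.97 and 27.2 CPM of its message, and Ahrr-deficient libraries 16.9, 29.0 and 25.0 CPM. The ranges overlapped widely, with a log2 change of 0.15 (SE 0.21; adjusted p 0.639, edgeR). The locus was thus expressed in all 6 cultures at levels that the test did not separate. Per length Cdkn2a exceeded Cdkn2c in every library, holding 68.2% to 86.3% of their summed level.

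Myc (ENSMUSG00000022346.15, chromosome 15, 61985391 to 61990374, plus strand) showed the widest change of the 10. Wild-type libraries held 26.8, 17.1 and 19.1 CPM, and Ahrr-deficient replicates 1, 2 and 3 held 72.6, 111 and 165 CPM. Even the lowest Ahrr-deficient library was far above the highest wild-type one, while the Ahrr-deficient libraries differed widely among themselves. The change was 5.19-fold, a log2 change of 2.37 (SE 0.27; adjusted p 0.00184, edgeR). Of the tested genes, 99.5% had a smaller absolute log2 change. The call held in all 17 alternatives, with log2 changes from 2.04 to 2.60.

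**Figure D2:**
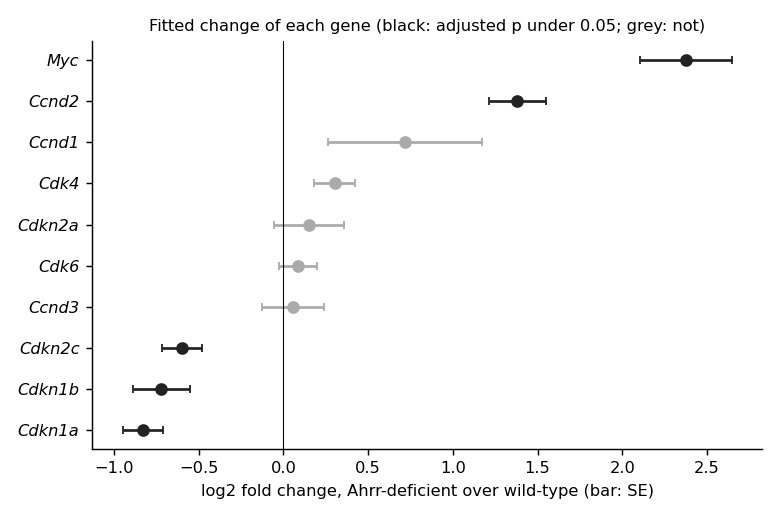
Fitted log2 change of each gene (horizontal axis, Ahrr-deficient over wild-type), with bars of 1 SE; black marks an edgeR adjusted p under 0.05. Myc at 2.37 and Ccnd2 at 1.38 lie to the right, and Cdkn1a, Cdkn1b and Cdkn2c between -0.83 and -0.60 to the left.

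Inhibitor and cyclin messages were also set side by side within each library. The summed level of Cdkn1a and Cdkn1b was 249.98, 236 and 213 CPM per kb in wild-type and 147, 133 and 141 CPM per kb in Ahrr-deficient replicates 1, 2 and 3. Divided by the summed D cyclins this gave ratios of 8.40, 11.4 and 7.04 in wild-type and 3.03, 1.77 and 1.98 in Ahrr-deficient libraries. This sum exceeded D cyclin message in all 6 libraries, by a smaller ratio in each Ahrr-deficient library than in any wild-type one. The summed message of Cdkn2a and Cdkn2c, which includes any ARF reads and leaves out the other INK4 genes, was 17.5 to 29.7 CPM per kb in wild-type and 19.1 to 28.7 in Ahrr-deficient libraries, and these ranges overlapped. Since the genes of these sums were partly known to differ, the ratios are a description and carry no test. Their size also depends on the exon lengths used, which are the same for both genotypes.

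**Figure D3:**
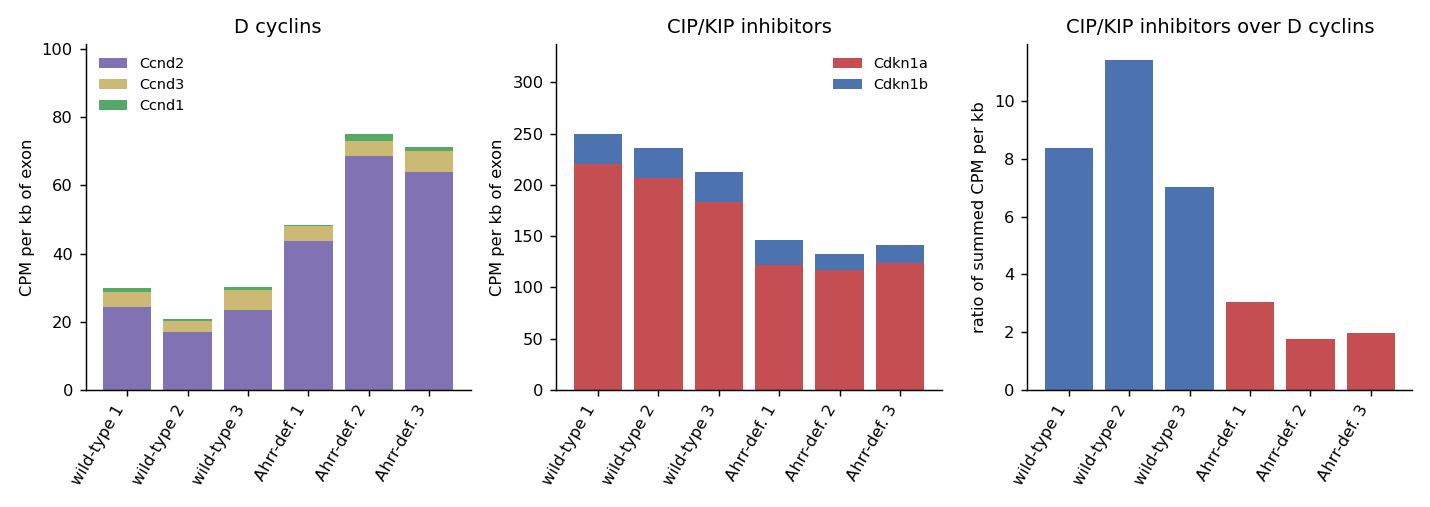
Levels in each library in CPM per kb of exon, stacked by gene, for the D cyclins (left) and the CIP/KIP inhibitors Cdkn1a and Cdkn1b (centre), and the ratio of the summed inhibitors to the summed D cyclins (right; blue wild-type, red Ahrr-deficient). Ccnd2 fills most of each D cyclin bar, and the ratio is 7.04 to 11.4 in wild-type and 1.77 to 3.03 in Ahrr-deficient libraries.

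Ahrr-deficient replicate 1 was the Ahrr-deficient library nearest to the wild-type mean (in log2 CPM) for 4 of the 5 called genes, all but Cdkn1a. The same was true of 58.7% of all 2232 called genes. It was also the shallowest library, and the part of depth in this position was not tested.

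Downstream of the D cyclins, most genes of the retinoblastoma and E2F step were not called, beside 19.6% of all tested genes that were. Of 17 tested genes 1 was called, the E2F partner Tfdp1, which rose from 27.3 ± 1.8 to 35.7 ± 3.0 CPM (SD, n = 3), which is 0.33 in log2 (edgeR adjusted p 0.0389). Tfdp1 kept its call in 5 of 17 alternatives and in 1 of 6 fits without a single library, that without Ahrr-deficient replicate 1, and lost it under upper-quartile scaling, DESeq2, the replicate block, GC offsets, thinning and no filter on low counts. The 17 genes had a median log2 change of 0.25, with 14 above 0. Without Ahrr-deficient replicate 1, edgeR called 4 genes of this list, all higher, and 32.6% of all tested genes. Among the later cyclins and their kinases 2 of 8 were called, both higher: Ccne1, the partner of CDK2 at the start of DNA synthesis, with a log2 change of 1.14 (edgeR adjusted p 0.0252), and the mitotic cyclin Ccnb1 with 0.88 (edgeR adjusted p 0.0234). Both were scarce, at 1.84 and 2.19 CPM on average in wild-type, and each kept its call in 9 of 17 alternatives. Both lost it with the replicate block and without any single library other than Ahrr-deficient replicate 1, with adjusted p up to 0.159 for Ccne1 and 0.144 for Ccnb1 over the alternatives. The 8 genes had a median log2 change of 0.47, with 7 above 0. Of 28 genes of DNA replication 0 were called by edgeR, 6 had an unadjusted p under 0.05, and DESeq2 and limma-voom called 1 and 2. Their median log2 change was 0.17, with 24 above 0, against 0.01 over all tested genes. Without Ahrr-deficient replicate 1, edgeR called 6, in the fit that called 32.6% of all tested genes. The most abundant of the 28, Pcna, the clamp of the replication fork, stood at 59.9 ± 4.1 CPM in wild-type and 75.2 ± 11.2 CPM in Ahrr-deficient libraries (SD, n = 3; edgeR adjusted p 0.102).

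Of 25 tested genes of mitosis, 9 were called higher and 1 lower, where 9.62% and 9.95% of all tested genes were. Their median log2 change was 0.72, with 23 above 0. The largest rises among called genes that averaged 50 counts or more were those of the spindle motor Kif11 (1.48, edgeR adjusted p 0.00972), the topoisomerase Top2a (1.27, 0.0149) and the ubiquitin-conjugating enzyme Ube2c (1.24, 0.0394). Kif11 and Ube2c were scarce, at 3.16 and 1.86 CPM on average in wild-type. The groups of Ube2c overlapped, and it held 6 counts in wild-type replicate 2 and 9 in Ahrr-deficient replicate 1. Cenpa, the histone that marks centromeres, went the other way, from 50.4 ± 1.8 CPM in wild-type to 23.4 ± 4.7 CPM in Ahrr-deficient libraries (SD, n = 3), a log2 change of -1.24 (edgeR adjusted p 0.00217). Over the 17 alternatives Cenpa kept its call in 17, Kif11 in 16 (lost without wild-type replicate 1), Top2a in 14 (lost without wild-type replicates 1 or 2 or Ahrr-deficient replicate 3) and Ube2c in 11 (lost without wild-type replicate 1 or 2 or Ahrr-deficient replicate 2 or 3, among others). The count of 10 called genes was 1 without wild-type replicate 1, 3 without wild-type replicate 2 or Ahrr-deficient replicate 2 or 3, 3 after thinning, 5 with the replicate block and 15 without Ahrr-deficient replicate 1. Of all tested genes, these fits called 6.07%, 8.15% to 10.3%, 12.1%, 12.2% and 32.6%, in that order.

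Of 21 tested MYC target genes 8 were called higher and 0 lower, where 9.62% and 9.95% of all tested genes were. Their median log2 change was 0.43, with 20 above 0. Nop58 and Fbl, which serve ribosomal RNA maturation, had log2 changes of 0.98 and 0.59 (edgeR adjusted p 0.0148 and 0.0431), and the transferrin receptor gene Tfrc had 0.71 (edgeR adjusted p 0.00645). Ldha, the most abundant gene of the list outside the calls, stood at 551 ± 44 CPM in wild-type and 689 ± 116 CPM in Ahrr-deficient libraries (SD, n = 3; edgeR adjusted p 0.2197). Tfrc kept its call in 16 of 17 alternatives, Nop58 in 13 and Fbl in 8. Nop58 lost it without wild-type replicate 1 or 2, and Fbl without any single library other than Ahrr-deficient replicate 1. The count of 8 was 17 without Ahrr-deficient replicate 1, 1 to 3 without any other single library, 3 with the replicate block, 1 after thinning and 5 with an offset for GC content. The shares of all tested genes called in these fits were 32.6%, 6.07% to 10.3%, 12.2%, 12.1% and 17.8%, in that order. Of 10 tested partners and rivals of MYC, 1 was called: Mxd4, which competes with MYC for MAX, fell from 152 ± 16 to 115 ± 22 CPM (SD, n = 3), which is -0.48 in log2 (edgeR adjusted p 0.0358). Its groups overlapped, and the call was lost after thinning and without any single library other than Ahrr-deficient replicate 1.

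The p53 pathway was listed because p53 induces Cdkn1a. Of 19 tested genes 4 were called, a share near the 19.6% of all tested genes, and 7 had a log2 change above 0, with a median of -0.10. The summed level of the list was 1498.5 to 1645.7 CPM in wild-type and 1149.6 to 1308.2 CPM in Ahrr-deficient libraries. Much of this gap lay in Btg2 alone, at 459 ± 58 and 134 ± 35 CPM (SD, n = 3), so the sum does not describe the list as a whole. The 3 genes that fell were Btg2, an antiproliferative gene (-1.86, edgeR adjusted p 0.00101), Sesn1 (-0.59, 0.0279) and Phlda3 (-0.58, 0.00668), which kept their calls in 17, 10 and 16 of 17 alternatives. The stress gene Gadd45a rose (log2 change 1.33, edgeR adjusted p 0.0394), but the call was lost under DESeq2, after thinning and without any single library other than Ahrr-deficient replicate 1. Sesn1 lost its call without wild-type replicate 1 or 3 and without Ahrr-deficient replicate 2 or 3. Gadd45a stood at 55.7 CPM in Ahrr-deficient replicate 2 and at 16.03 and 23.0 CPM in replicates 1 and 3. The p53 target Ccng1, the most abundant of the genes not called, stood at 246 ± 15 and 261 ± 41 CPM (SD, n = 3; log2 change 0.00, edgeR adjusted p 0.989). Of 2 more genes, picked after their values were seen, Trp53, which encodes p53, had a log2 change of 0.03 (SE 0.09) and its target Mdm2 one of 0.00 (SE 0.09).

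The remaining regulators of CDKs were mostly not called. Among the other CDK inhibitors edgeR called 0 of 3 tested genes, also 0 at an unadjusted p under 0.05, as did DESeq2 and limma-voom. The untested gene, Cdkn1c, encodes the CIP/KIP inhibitor p57 and is named here after its values were seen. It held 4, 0 and 2 counts in wild-type and 2, 37 and 5 counts in Ahrr-deficient libraries. With no filter on low counts it was called higher by edgeR (log2 change 2.03, SE 0.60, adjusted p 0.0489), against the direction of Cdkn1a and Cdkn1b. DESeq2 gave it a log2 change of 2.00 (SE 1.04), an unadjusted p of 0.0543 and no adjusted p. Among the tested genes, Cdkn2d, which encodes the INK4 protein p19, had a log2 change of 0.12 (edgeR adjusted p 0.661). Of 17 tested genes for activating or degrading cyclin-CDK complexes 1 was called, Fbxo4, a subunit of an SCF ubiquitin ligase, which fell from 10.3 ± 1.5 to 6.74 ± 1.77 CPM (SD, n = 3; edgeR adjusted p 0.0277). Fbxo4 lost its call with the replicate block, after thinning and without any single library other than Ahrr-deficient replicate 1. Over the 9 lists together the 27 calls became 4 without wild-type replicate 1, 57 without Ahrr-deficient replicate 1, 7 to 14 without any other single library, 12 with the replicate block and 7 after thinning. In the same order, these fits called 6.07%, 32.6%, 8.15% to 10.3%, 12.2% and 12.1% of all tested genes.

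**Figure D4:**
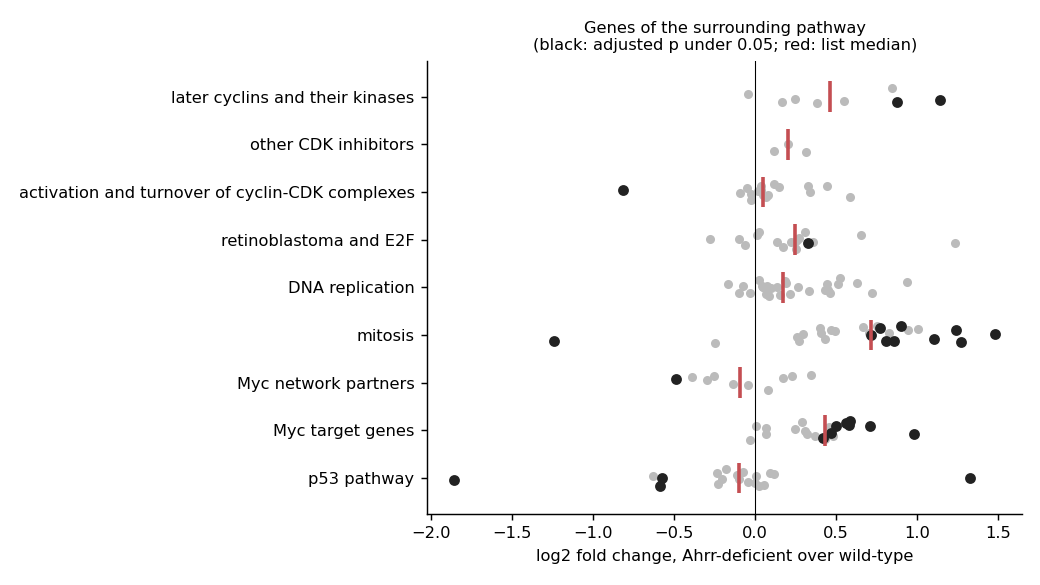
Log2 fold change (horizontal axis, Ahrr-deficient over wild-type) of every tested gene in 9 lists around the 10 genes, with black points for an edgeR adjusted p under 0.05 and a red line at each list's median. The medians of mitosis (0.72), later cyclins and their kinases (0.47) and MYC target genes (0.43) lie right of that of all tested genes (0.01). So do those of retinoblastoma and E2F (0.25), other CDK inhibitors (0.20) and DNA replication (0.17). That of activation and turnover of cyclin-CDK complexes lies at 0.05, that of Myc network partners at -0.09 and that of the p53 pathway at -0.10.

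**Figure D5:**
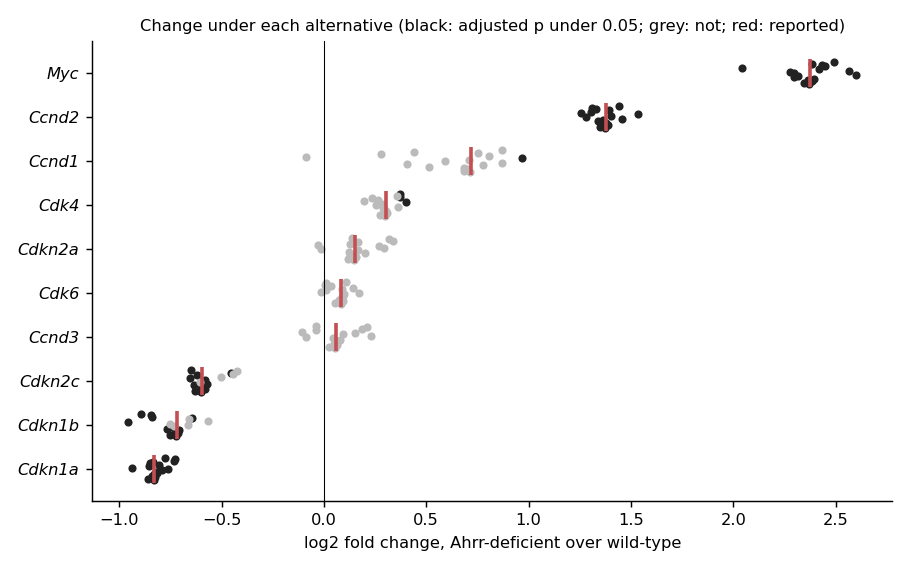
Log2 fold change of each gene (horizontal axis) in 17 alternative fits, black where the adjusted p was under 0.05 and grey where it was not, with the reported value as a red bar. Myc, Ccnd2 and Cdkn1a keep their call throughout, while Cdkn1b and Cdkn2c keep it in 12 and 13 of 17.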

How the data were processed

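The authors deposited raw read counts per feature, without gene names, and a normalized signal per gene, which is the count divided by a size factor of the library. Per the submitters' processing notes the build was mm10, and CASAVA 1.8.2, fastp 0.20.0, STAR 2.7.10b, SAMtools 1.16.1 and DESeq2 1.40.2 in R 4.3.1 were used. The counting program, annotation and strand setting are not given in the sources used here. The deposited signal gave whole reads for 100% of its values (tolerance 1e-06), and these equalled the raw counts of the 16111 features with at least 10 counts in total. Raw features outside these genes held at most 0.0511% of a library's counts; they entered the CPM totals but not the fit.

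Counts were fitted with edgeR 4.0.16 (TMM, filterByExpr, quasi-likelihood test, genotype as the only term) in R 4.3.3, with two-sided p-values adjusted by Benjamini-Hochberg over 11408 genes. The fit was also run on counts simulated with the same dispersion for all genes, a check of its code and not of its calls in these data. CPM is counts over the library total, and CPM per kb divides it by the length covered by all annotated exons of the gene in GENCODE mouse release M21. Of the gene identifiers, 16088 matched that release, on GRCm38 like the authors' build. A floor of 3 counts is 0.0720 CPM in the deepest and 0.844 CPM in the shallowest library; it covers counting error only.

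Library totals in the deposited counts ranged 11.7-fold. Same-numbered libraries are different mice and were not treated as pairs. The members and the gene lists were chosen with earlier results of these data known. Named list genes are, per list, up to 3 called higher and 3 called lower by size of change, if they averaged 50 counts or more, and the most abundant gene not called. Alternatives were RLE and upper-quartile scaling, other filters, DESeq2 1.42.0, limma-voom (limma 3.58.1), the replicate block, each library left out, and thinning. Offsets for GC content, with and without the block, and a fit without 2 libraries were added after the data were seen.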

Additional observations from a re-analysis of the deposited data

How the results depend on the processing

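Over 17 alternative fits and the deposited normalized values, 400 values were recomputed, of which 280 kept their direction and call or stayed within 1.5-fold or 1 SD. The same 5 members were called under RLE and upper-quartile scaling, both filters, DESeq2, limma-voom and the replicate block. Leaving out 1 library gave 3 to 7 called members, 694 to 3857 called genes and 4 to 57 called genes of the 9 pathway lists, against 5, 2232 and 27. The low ends came from the fits without wild-type replicate 1 (and, for members, also without Ahrr-deficient replicate 2) and the high ends from the fit without Ahrr-deficient replicate 1. The replicate block gave 1390 called genes and 12 list genes, thinning to the smallest total 1251 and 7, and GC offsets with the replicate block 1239 and 11. Without wild-type replicate 2 and Ahrr-deficient replicate 1 there were 51 list genes. The cause was not tested.

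Among the members, the log2 change altered its sign only for genes that were not called. Ccnd3 was -0.041 after thinning, -0.04 without wild-type replicate 2 and Ahrr-deficient replicate 1, and ranged from -0.11 to 0.23 with 1 library left out. With 1 library left out, Cdk6 ranged from -0.015 to 0.17, Cdkn2a from -0.030 to 0.29 and Ccnd1 from -0.090 to 0.97. Cdk4 was called with GC offsets (log2 fold change 0.37, edgeR adjusted p 0.0427). Cdkn2c was not with GC offsets and the block (edgeR adjusted p 0.112). Across tested genes the log2 fold change fell with GC content (Spearman -0.28 across genes).

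Same-numbered libraries come from different mice, and their deviations from the group means correlated at -0.17, 0.07 and 0.13 for numbers 1, 2 and 3. Libraries of unlike number correlated at -0.21 to 0.16. With so few libraries these values cannot show whether same-numbered cultures shared a preparation. Depth limits Ccnd1 most, with 4 counts in the shallowest library.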

Other observations

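Across the 6 libraries, the log2 CPM of Myc and Ccnd2 had a Pearson r of 0.98, and each had an r between -0.93 and -0.89 with Cdkn1a, Cdkn1b and Cdkn2c. All 6 points share the genotype difference, so these values describe the separation of the groups and carry no test. Cdk4, which was not called, had an r of 0.893 with Ccnd2 and of -0.905 with Cdkn1b. Cdkn2a had an r of 0.788 with Cdk4, 0.781 with Ccnd1 and 0.775 with Ccnd3, but -0.366 with Cdk6.

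Among 10024 other tested genes with a mean of at least 50 counts, those most alike to Myc over the 6 libraries were Vta1 (Pearson r 0.999), Slc39a9 (0.996) and Egln1 (0.996), where Egln1 encodes an oxygen-sensing prolyl hydroxylase. Their own changes were small, with log2 fold changes of 0.23, 0.33 and 0.29, against 2.37 for Myc, and Vta1 was not called (edgeR adjusted p 0.118). As the highest of 10024 correlations over 6 libraries that share the genotype difference, these r values carry no test.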
